A study of Mus musculus with 23 samples.

Results

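The genes described here encode the constitutive proteasome with its activators. They were taken by symbol from a fixed list of 37 genes out of the 55487 gene identifiers measured, with the immunoproteasome catalytic subunits left out. The list holds 7 alpha-ring genes (Psma1 to Psma7) and 7 beta-ring genes (Psmb1 to Psmb7) of the 20S core, and 6 ATPase genes (Psmc1 to Psmc6), 3 other base genes (Psmd1, Psmd2 and Psmd4) and 8 lid genes of the 19S regulatory particle. It also holds 4 activator genes (Psme1 to Psme4). The last 2 members are neither subunits nor activators: Psmf1 encodes the inhibitor PI31, and Pomp encodes a factor needed to assemble the core. All 37 had at least 315 reads in every library, at most 8548, and all 37 passed the filter on low counts that left 15732 genes to test.

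The libraries were made from poly-A RNA of whole hearts of female, wild-type C57BL/6J mice that were 10 weeks old. In the first arm mice received isoproterenol (ISO), an agonist of beta-adrenergic receptors, at 300 mg/kg, and in the second lipopolysaccharide (LPS), which comes from bacterial cell walls and binds Toll-like receptor 4, at 2.5 mg/kg. Both arms had a baseline of their own, 4 libraries from untreated mice, and hearts taken 1 day and 7 days after treatment, with 3 libraries for ISO day 1 and 4 for each of the other 3 treated groups. The labels give 3 to 4 mice a group; p-values measure the spread between these libraries.

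The proteasome degrades proteins that carry ubiquitin chains. Its core is a stack of several rings in which the outer alpha rings gate the entrance and the inner beta rings hold the proteolytic sites, and the 19S particle binds, unfolds and deubiquitinates substrates before they enter. Heart muscle depends on it to remove damaged and misfolded sarcomere proteins. Other caps can replace the 19S particle: the PA28 alpha and beta proteins (Psme1 and Psme2) form a ring induced by interferon gamma, PA28 gamma (Psme3) acts in the nucleus, and PA200 (Psme4) is a large single-chain cap. When proteasome activity falls short, the transcription factor NRF1 (Nfe2l1) is processed to its active form and raises transcription of many subunit genes together.

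Library totals ran from 20910371 to 30368954 estimated reads, and the 37 genes together held 51910 to 108068 of them. The 4 LPS day 1 libraries fell into pairs: over all genes the chi-square per degree of freedom was 13.96 between libraries 1 and 2 and 11.01 between libraries 3 and 4, while any pairing across these gave 32.0 to 48.3. The summed level of 6 cardiomyocyte markers was 35720 to 43500 CPM (reads relative to the library total, TMM-scaled, compared only within a gene) at LPS day 1 against 59020 to 63840 CPM at LPS baseline, and 44630 to 63040 CPM at ISO day 1 against 63900 to 69300 CPM at ISO baseline, with 5 of 6 markers lower in each comparison. The sum over 5 neutrophil markers was 7.80 to 12.8 CPM at LPS day 1 against 1.304 to 1.70 CPM at LPS baseline, with 5 of 5 higher. At ISO day 1 it was 4.58 to 9.36 CPM against 1.33 to 1.89 CPM at ISO baseline, with 3 of 5 higher. Macrophage markers fell in 3 of 5 at LPS day 1, where their sum was 34.0 to 49.8 CPM against 92.8 to 115 CPM at baseline. No cardiomyocyte, neutrophil or macrophage marker was at 0 reads over a group. In whole tissue, fewer cells of a type and less RNA per cell cannot be told apart, and the part of these markers in the proteasome values was not tested.

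Levels of different genes are compared in transcript abundance values (TPM), which are scaled by gene length. Over the 8 untreated libraries the most abundant members were Psmb6, the caspase-like catalytic subunit, at 151.7 ± 4.46 TPM (SD, n = 8) and Psmc3, an ATPase, at 149.7 ± 8.33 TPM. These 2 overlapped and changed order between the baselines, with Psmb6 at 152 and Psmc3 at 145 TPM in the ISO arm and at 151 and 155 TPM in the LPS arm. Psme1 stood at 109.8 ± 6.28 TPM. Psmf1 was the least abundant at 7.46 ± 0.579 TPM, a level 20.3 times below that of Psmb6. The libraries of 32 of the 36 neighbours in this order overlapped, so most neighbouring ranks were not separated. Exceptions were the steps from Psmc3 to Psme1, from Psme1 to Psmb5, from Psmb1 to Psmc4 and from Psma5 to Psmf1. The median level of the 7 beta-ring genes was 89.5 TPM, that of the 7 alpha-ring genes 60.9 TPM, that of the 6 ATPase genes 47.1 TPM and that of the 8 lid genes 35.6 TPM.

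The first comparison asked how these genes stood 1 day after ISO. All 31 core and 19S subunit genes were higher than at ISO baseline. The activators Psme1, Psme2 and Psme4 were lower, while Psmf1 and Pomp did not pass the test. In all 32 of 37 genes rose and 3 fell (65.7% of all tested genes changed) at an adjusted p under 0.05 (edgeR quasi-likelihood test, Benjamini-Hochberg), against 32.9% of all tested genes that rose and 32.8% that fell. The median log2 change of the 37 genes was 0.39, against -0.01 over all tested genes. In 33 members every ISO day 1 library lay above every baseline library, which was so for 33.4% of all genes, and in 3 members every library lay below, against 33.3% of all genes. The share of reads held by the 37 genes went from 0.252% ± 0.00263 (SD, n = 4) to 0.325% ± 0.0103 (SD, n = 3).

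At 1 day after LPS, 36 of 37 genes rose, against 33.2% of all tested genes that rose and 66.2% that changed. Psme4 alone fell, against 33.0% of all tested genes that fell. The median log2 change was 0.63 against 0.00 over all tested genes. The libraries of those 36 members did not overlap those of LPS baseline, against 29.3% of all genes in that direction, and the libraries of Psme4 overlapped, so 0 members lay wholly below baseline against 28.9%. The share of reads went from 0.247% ± 0.00194 (SD, n = 4) to 0.370% ± 0.0248 (SD, n = 4), and lay between 0.338% and 0.397% in the day 1 libraries. With LPS day 1 replicates 1 and 2 alone 36 genes rose and 1 fell, against 31.9% and 31.8% of all genes. With replicates 3 and 4 alone 36 rose and 0 fell, against 29.7% and 29.1%. The plot of day 1 changes sets both agents side by side for each gene.

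**Figure D1:**
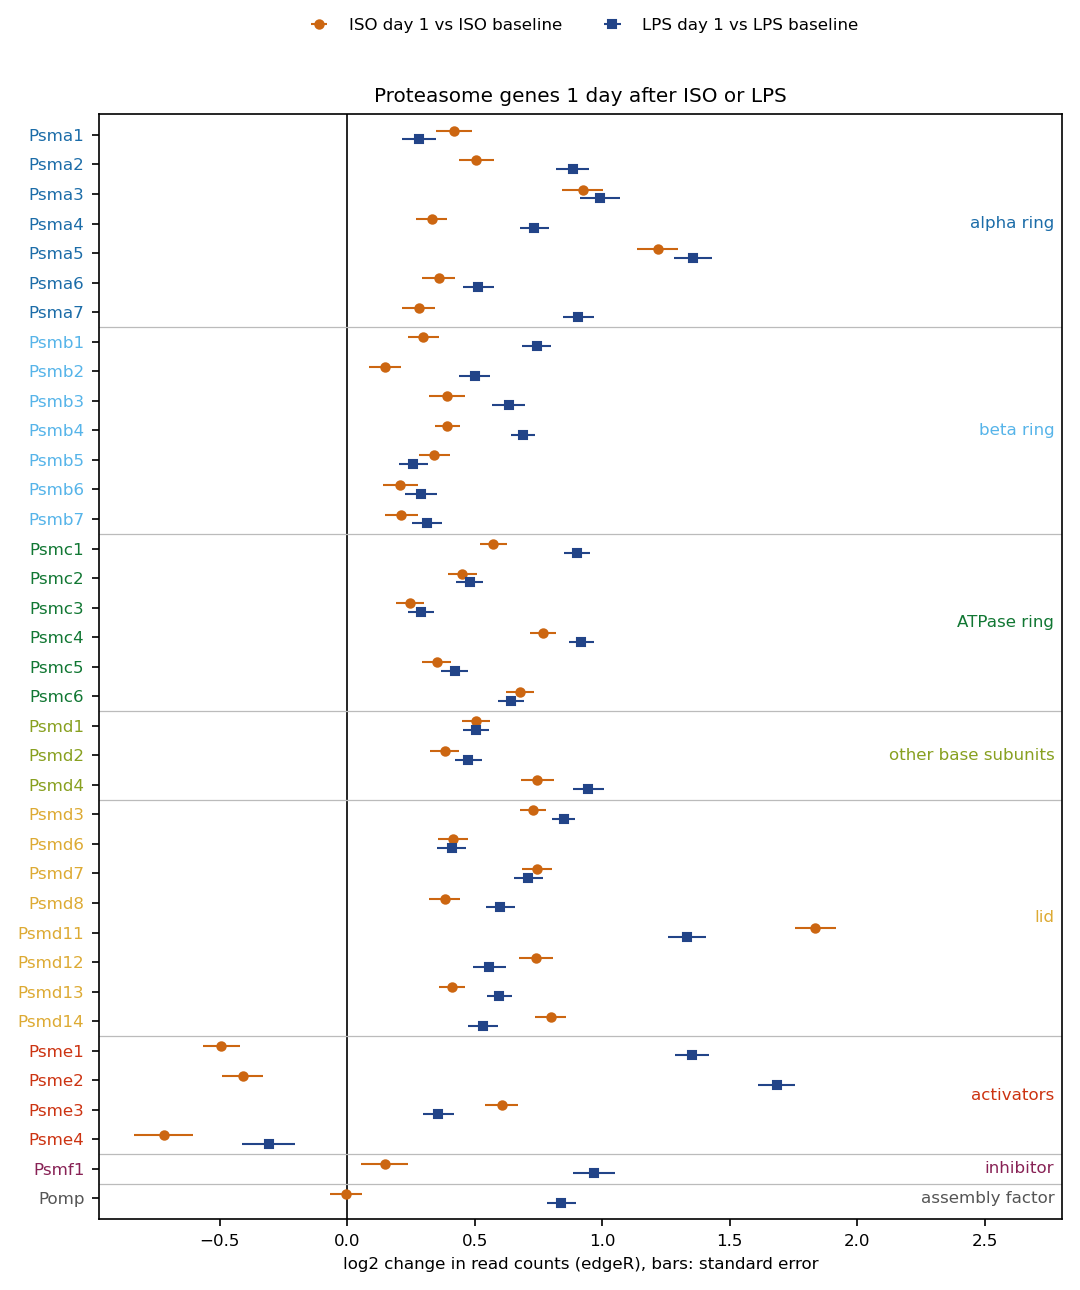
Log2 change of each of the 37 proteasome genes 1 day after ISO (circles) or LPS (squares) against the arm's own baseline, with bars for 1 standard error and genes grouped by their place in the proteasome. Psmd11 reached 1.84 under ISO, Psme1 and Psme2 lay below 0 under ISO and above 1 under LPS, and Psme4 lay below 0 under both.

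Within the alpha ring, whose subunits gate the core, the 7 genes rose under both agents, with a median log2 change of 0.42 for ISO and 0.88 for LPS. Psma5 rose furthest of them under each agent. It stood at 22.1, 20.4, 19.7 and 20.4 CPM at ISO baseline and at 50.5, 52.1 and 41.3 CPM at ISO day 1, in order of replicate number as in all such lists here. Its LPS baseline libraries held 22.7, 17.4, 18.4 and 18.3 CPM and the LPS day 1 libraries 52.6, 47.4, 49.3 and 47.7 CPM. All treated day 1 libraries lay well above all untreated ones. The log2 change was 1.22 (SE 0.08, adjusted p = 1.07e-11) for ISO and 1.36 (SE 0.08, adjusted p = 5.04e-13) for LPS.

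Psma1 rose least of the alpha ring under LPS, and Psma7 least under ISO. Psma7 stood at 68.0, 63.0, 67.0 and 57.96 CPM at ISO baseline and at 80.2, 72.6 and 80.5 CPM at ISO day 1, a log2 change of 0.28 (SE 0.07, adjusted p = 0.000649). Under LPS it went from 64.3, 61.2, 56.7 and 62.1 CPM to 120.2, 118, 114 and 106 CPM, a log2 change of 0.91 (SE 0.06, adjusted p = 1.1e-11). The groups did not overlap in either arm, and the LPS day 1 libraries lay higher than the ISO day 1 libraries. Psma1 went from 58.5, 56.1, 52.3 and 52.5 CPM to 77.1, 71.2 and 71.7 CPM under ISO and from 60.1, 61.2, 57.2 and 58.7 CPM to 74.7, 66.2, 76.2 and 71.4 CPM under LPS. Its day 1 libraries were again above all baseline libraries of their arm, by log2 changes of 0.42 (SE 0.07) and 0.28 (SE 0.07). The other 4 alpha genes changed by 0.33 to 0.92 under ISO and by 0.51 to 0.99 under LPS.

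The 7 beta-ring genes rose with a median log2 change of 0.30 for ISO and 0.50 for LPS. Psmb5, the chymotrypsin-like catalytic subunit that is the main target of proteasome inhibitor drugs, stood at 73.8, 67.2, 70.8 and 68.1 CPM at ISO baseline and at 88.1, 89.7 and 88.3 CPM at ISO day 1. In the LPS arm it went from 61.1, 68.9, 65.7 and 64.7 CPM to 80.1, 81.3, 77.4 and 72.8 CPM. No day 1 library overlapped the baseline of its arm, and the log2 changes were 0.34 (SE 0.06, adjusted p = 3.88e-05) and 0.26 (SE 0.06, adjusted p = 0.000371). The other 2 catalytic genes, Psmb6 (caspase-like) and Psmb7 (trypsin-like), changed by 0.21 each under ISO and by 0.29 and 0.31 under LPS.

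Among the beta subunits without a proteolytic site, Psmb1 stood at 71.8, 66.0, 71.3 and 68.9 CPM at ISO baseline, at 84.1, 82.9 and 89.4 CPM at ISO day 1, at 67.1, 67.1, 62.8 and 66.2 CPM at LPS baseline and at 111, 111, 112 and 106 CPM at LPS day 1. Both day 1 groups lay clear of their baselines, with the LPS libraries highest. The log2 change was 0.30 (SE 0.06) under ISO and 0.74 (SE 0.06) under LPS. Psmb4 went from 63.0, 63.8, 65.0 and 65.4 CPM to 85.3, 83.2 and 84.8 CPM under ISO and from 70.3, 70.0, 69.7 and 68.8 CPM to 118, 117, 109 and 107 CPM under LPS. The spread within each group was small beside those gaps, which were log2 changes of 0.39 (SE 0.05) and 0.69 (SE 0.05).

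Psmb2 had the smallest called rise under ISO. It stood at 66.3, 65.4, 61.1 and 64.2 CPM at ISO baseline and at 72.2, 67.6 and 73.9 CPM at ISO day 1, a log2 change of 0.15 (SE 0.06, adjusted p = 0.0444). The groups lay next to each other without overlap. In all, the Psmb2 call at ISO day 1 was lost in 9 of 17 alternatives. The call was lost without ISO baseline replicate 2, 3 or 4 or ISO day 1 replicate 1 or 3, where the log2 change was 0.12 to 0.16 and the adjusted p 0.0566 to 0.15, and also with library totals as the scaling (adjusted p = 0.0556), without a filter on low counts (0.162) and with a minimum count of 50 (0.0726). Under LPS Psmb2 went from 55.3, 57.2, 51.5 and 50.3 CPM to 74.7, 82.0, 75.2 and 71.3 CPM, with no overlap and a log2 change of 0.50 (SE 0.06, adjusted p = 1.26e-07). Psmb3 changed by 0.39 and 0.63.

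In the base of the 19S particle, the 6 ATPase genes, whose proteins unfold substrates and push them into the core, rose with medians of 0.51 for ISO and 0.56 for LPS. Psmc4 rose furthest of them under both agents. It went from 52.4, 51.005, 48.6 and 49.1 CPM to 84.9, 84.3 and 87.4 CPM under ISO and from 48.0, 49.9, 46.5 and 47.1 CPM to 96.99, 92.3, 86.6 and 85.9 CPM under LPS. The day 1 libraries were far above every baseline library, with log2 changes of 0.77 (SE 0.05, adjusted p = 2.16e-11) and 0.92 (SE 0.05, adjusted p = 2.66e-13). Psmc3, the most abundant ATPase transcript per length, moved least: 145, 140.5, 148 and 135 CPM went to 170.1, 158 and 177 CPM under ISO, and 137, 139.5, 128 and 137 CPM went to 172, 166, 164 and 160.4 CPM under LPS. These groups did not overlap either, and the log2 changes were 0.25 (SE 0.05) and 0.29 (SE 0.05). The other 4 ATPase genes changed by 0.35 to 0.68 and by 0.42 to 0.90.

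Psmd1 and Psmd2 encode the large scaffold proteins of the base and Psmd4 a receptor that binds ubiquitin chains. Psmd4 rose furthest of the 3 in both arms, from 76.4, 70.8, 77.0 and 66.6 CPM to 120.1, 121 and 125 CPM under ISO and from 67.4, 71.9, 59.5 and 63.6 CPM to 128, 126, 128 and 123 CPM under LPS. The libraries of each day 1 group were tightly placed and above all baseline libraries, with log2 changes of 0.74 (SE 0.07) and 0.95 (SE 0.06). Psmd2 went from 179.9, 179, 188 and 177 CPM to 245, 229.8 and 233 CPM under ISO and from 160.0, 165, 160.4 and 171 CPM to 230.2, 228, 235 and 219 CPM under LPS. It too showed no overlap, with log2 changes of 0.38 (SE 0.06) and 0.48 (SE 0.05). Psmd1 changed by 0.50 in each arm.

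The lid was the class with the highest median change under ISO, 0.73, against 0.60 under LPS. One gene stood far from the others: Psmd11, which encodes the subunit (Rpn6 in yeast) that clamps the lid to the core. It stood at 60.2, 53.5, 54.5 and 53.5 CPM at ISO baseline and at 198, 216 and 179.6 CPM at ISO day 1. The ISO day 1 libraries held more than any other group for this gene. The rise was 3.57-fold, a log2 change of 1.84 (SE 0.08, adjusted p = 1.8e-14). Under LPS it went from 60.9, 62.1, 60.4 and 57.3 CPM to 167, 169, 138 and 133 CPM, a log2 change of 1.33 (SE 0.07, adjusted p = 5.73e-13). The day 1 values again split into replicates 1 and 2, the higher pair, and replicates 3 and 4, with log2 changes of 1.48 and 1.17 for each pair alone.

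Psmd6 and Psmd8, 2 structural lid subunits, had smaller rises. Psmd6 went from 37.1, 37.5, 37.3 and 36.0 CPM to 50.03, 49.6 and 48.1 CPM under ISO and from 37.9, 36.1, 37.5 and 36.7 CPM to 52.7, 52.2, 47.3 and 44.7 CPM under LPS. The log2 change was 0.41 (SE 0.06) in each arm, with no overlap. Psmd8 went from 71.3, 66.3, 64.2 and 64.7 CPM to 87.5, 80.1 and 93.0 CPM under ISO and from 68.5, 67.6, 68.4 and 66.6 CPM to 106, 113, 94.99 and 97.8 CPM under LPS. All day 1 libraries exceeded all baseline libraries, by log2 changes of 0.38 (SE 0.06) and 0.60 (SE 0.06). Psmd14, the deubiquitinase that removes the chain from the substrate, and its partner Psmd7 changed by 0.80 and 0.74 under ISO and by 0.53 and 0.71 under LPS. The remaining lid genes, Psmd3, Psmd12 and Psmd13, changed by 0.41 to 0.74 and by 0.56 to 0.85.

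**Figure D2:**
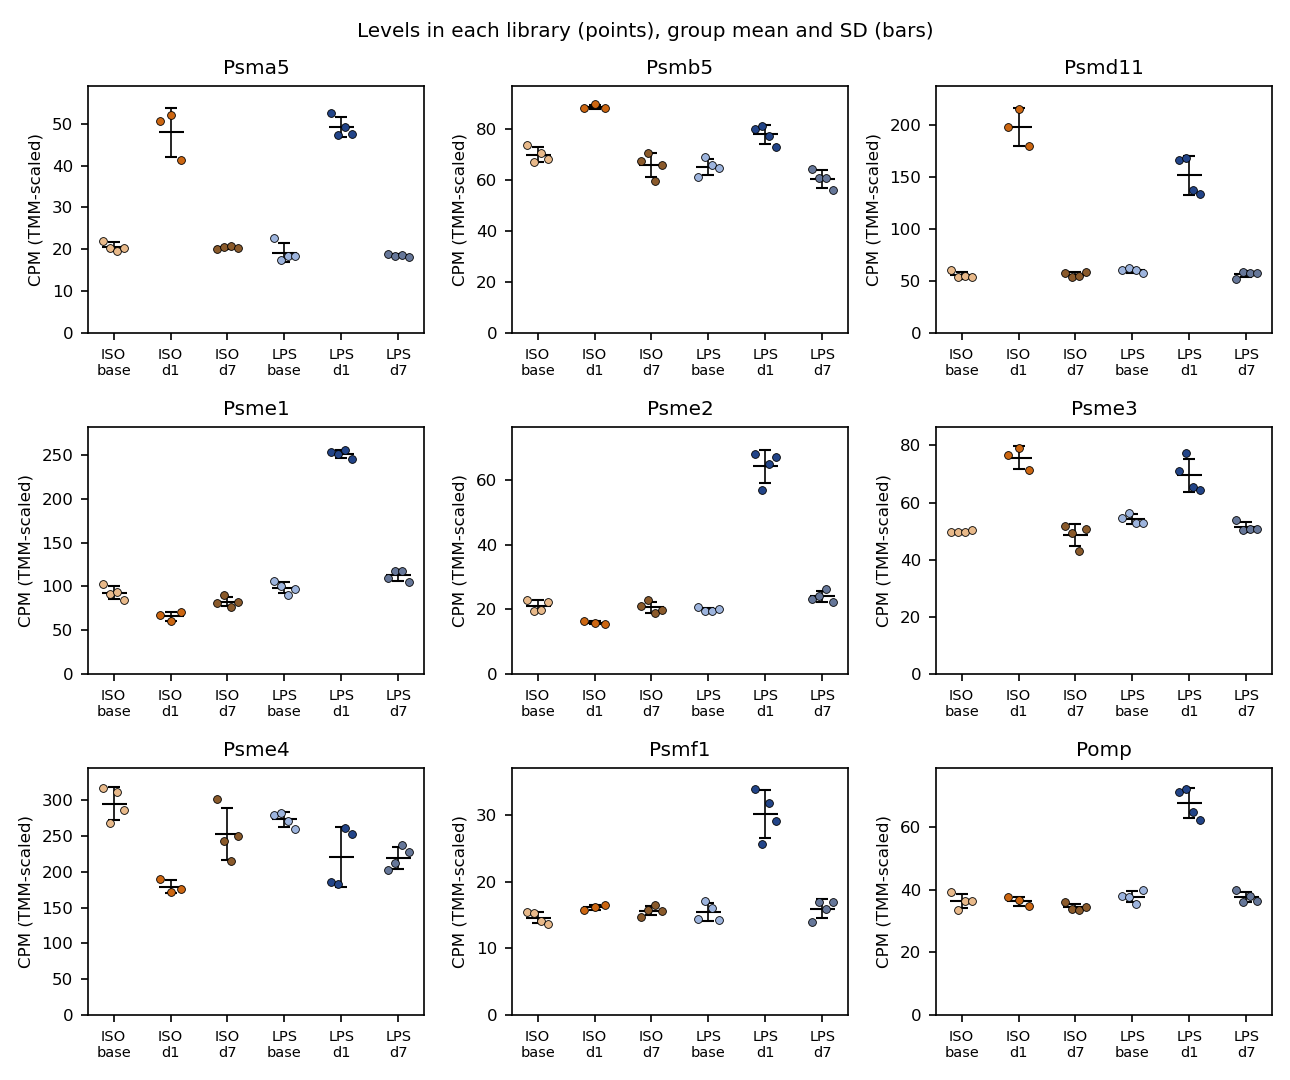
TMM-scaled CPM of 9 proteasome genes in every library (points) in the 6 groups, with the group mean and SD as bars and each vertical axis starting at 0. Psme1 and Psme2 fell to means of 65.9 and 16.0 CPM at ISO day 1 and reached 252 and 64.4 CPM at LPS day 1, while Psma5 and Psmd11 were high at day 1 in both arms.

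The paired activator genes moved in opposite directions under the 2 agents. Psme1, which encodes PA28 alpha, stood at 103, 91.0, 93.3 and 84.3 CPM at ISO baseline and at 66.8, 60.5 and 70.6 CPM at ISO day 1. At LPS baseline it stood at 106, 100.1, 90.7 and 97.4 CPM and at LPS day 1 at 254, 251, 256 and 246 CPM. Every ISO day 1 library was thus below, and every LPS day 1 library far above, all untreated libraries. The log2 change was -0.49 (SE 0.07, adjusted p = 2.89e-06) for ISO and 1.35 (SE 0.07, adjusted p = 5.64e-14) for LPS, a level 0.71 times and 2.55 times that of baseline.

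Psme2, which encodes PA28 beta, followed the same order. Its libraries held 22.9, 19.4, 19.9 and 22.5 CPM at ISO baseline and 16.3, 16.0 and 15.5 CPM at ISO day 1, a log2 change of -0.41 (SE 0.08, adjusted p = 0.000122). They held 20.7, 19.5, 19.7 and 20.3 CPM at LPS baseline and 68.2, 56.9, 65.2 and 67.3 CPM at LPS day 1, a log2 change of 1.68 (SE 0.07, adjusted p = 5.9e-15). No group overlapped its baseline, and Psme2 had the highest LPS change of the 37 genes. Summed per length, Psme1 and Psme2 went from 138 ± 4.59 TPM (SD, n = 4) to 102 ± 2.36 TPM (SD, n = 3) under ISO and from 147 ± 4.01 TPM (SD, n = 4) to 394 ± 49.1 TPM (SD, n = 4) under LPS. Reads of Psme2b, a near-identical copy on chromosome 11, amounted to 13.1% of those of Psme2, and with them added the log2 changes were -0.37 and 1.61.

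Both genes lie on chromosome 14 (GRCm38), Psme1 at chr14:55578123-55581529 on the plus strand and Psme2 at chr14:55587441-55591113 on the minus strand, 5911 bases apart. Their start regions are printed because the pair changed together in each arm. Each stretch runs from 250 bases before to 30 bases after the start site in RefSeq (GRCm38.p6), on the gene's strand, and covers chr14:55578244-55578523 and chr14:55591072-55591351. Capitals mark an interferon-stimulated response core, GAAA and again GAAA with any 2 bases between them, read on either strand. Psme1 holds it once, from position +10 after the start, and these letters are not in the Psme2 stretch.
Psme1: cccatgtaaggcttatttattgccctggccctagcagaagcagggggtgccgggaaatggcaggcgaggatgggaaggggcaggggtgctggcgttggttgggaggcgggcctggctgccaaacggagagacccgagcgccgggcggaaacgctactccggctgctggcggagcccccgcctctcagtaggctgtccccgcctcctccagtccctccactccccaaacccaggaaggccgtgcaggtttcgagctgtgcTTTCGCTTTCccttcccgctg
Psme2: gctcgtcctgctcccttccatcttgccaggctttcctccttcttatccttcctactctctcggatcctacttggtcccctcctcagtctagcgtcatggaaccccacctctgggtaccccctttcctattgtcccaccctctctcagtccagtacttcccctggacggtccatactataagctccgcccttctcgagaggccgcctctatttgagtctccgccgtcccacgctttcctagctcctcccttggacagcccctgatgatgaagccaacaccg

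Psme3, which encodes the nuclear cap PA28 gamma, differed from its relatives and rose in both arms. It went from 49.6, 49.7, 49.5 and 50.3 CPM to 76.7, 79.1 and 71.3 CPM under ISO and from 54.7, 56.3, 52.8 and 52.9 CPM to 71.0, 77.2, 65.3 and 64.5 CPM under LPS. Neither day 1 group overlapped its baseline. The log2 change was 0.60 (SE 0.06, adjusted p = 2.87e-08) for ISO and 0.36 (SE 0.06, adjusted p = 1.77e-05) for LPS.

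Psme4, which encodes the cap PA200, was the only member that fell under both agents. It stood at 317, 268, 311 and 286 CPM at ISO baseline and at 189.8, 172 and 176 CPM at ISO day 1. That is a log2 change of -0.72 (SE 0.12, adjusted p = 1.05e-05), and the groups were far apart. Under LPS it went from 279, 282, 271 and 259.5 CPM to 185, 183, 261 and 253 CPM, a log2 change of -0.31 (SE 0.11, adjusted p = 0.0134). Replicates 1 and 2 of LPS day 1 were low, while replicates 3 and 4 lay at the edge of the baseline range. The call was lost without LPS day 1 replicate 1 (-0.23, adjusted p = 0.0654) or replicate 2 (-0.23, adjusted p = 0.0626), and with replicates 3 and 4 alone the log2 change was -0.09 (adjusted p = 0.455), against -0.57 (adjusted p = 3.88e-05) with replicates 1 and 2 alone.

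The inhibitor and the assembly factor separated the agents. Psmf1, which encodes PI31, stood at 15.4, 15.3, 14.2 and 13.6 CPM at ISO baseline and at 15.7, 16.2 and 16.5 CPM at ISO day 1, a log2 change of 0.15 that did not pass the test (SE 0.09, adjusted p = 0.16). Under LPS it went from 14.3, 17.05, 16.0 and 14.2 CPM to 33.9, 25.6, 31.7 and 29.1 CPM. The ISO day 1 libraries sat just above their baseline, and the LPS day 1 libraries sat far above theirs, at 0.97 (SE 0.08, adjusted p = 6.02e-10). Pomp stood at 39.2, 33.6, 36.5 and 36.4 CPM at ISO baseline and at 37.7, 36.6 and 34.8 CPM at ISO day 1, with overlapping groups and a log2 change of -0.01 (SE 0.06, adjusted p = 0.945). It went from 37.9, 37.7, 35.5 and 39.9 CPM to 71.0, 72.2, 64.9 and 62.2 CPM under LPS, with no overlap and a log2 change of 0.84 (SE 0.06, adjusted p = 1.77e-11). On the log2(TPM + 0.1) scale both genes rose under ISO, Pomp by 0.22 (adjusted p = 0.0258) and Psmf1 by 0.28 (adjusted p = 0.0333); the deposited effective length of Pomp ranged from 615 to 1016 bases between libraries, with means of 879 at ISO baseline and 768 at ISO day 1.

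Start regions are printed on the same terms for Psmd11 and Psma5, the subunit genes with the largest rises, and for Psme4, called lower under both agents. They cover chr11:80428365-80428644, chr3:108256676-108256955 and chr11:30771525-30771804, all on the plus strand. Capitals mark the ETS core CCGGAAG in Psmd11, from position -11, and the antioxidant response core TGACNNNGC, which NRF1 and NRF2 with small MAF partners are known to bind, in Psme4, from position -7. The Psme4 stretch also holds the ETS core, left in lower case. Neither set of letters, nor the interferon core, is in the Psma5 stretch.
Psmd11: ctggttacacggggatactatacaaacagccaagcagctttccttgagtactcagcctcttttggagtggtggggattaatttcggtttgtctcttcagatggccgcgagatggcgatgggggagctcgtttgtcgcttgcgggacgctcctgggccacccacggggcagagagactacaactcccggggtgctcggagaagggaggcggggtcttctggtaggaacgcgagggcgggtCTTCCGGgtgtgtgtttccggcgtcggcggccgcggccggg
Psma5: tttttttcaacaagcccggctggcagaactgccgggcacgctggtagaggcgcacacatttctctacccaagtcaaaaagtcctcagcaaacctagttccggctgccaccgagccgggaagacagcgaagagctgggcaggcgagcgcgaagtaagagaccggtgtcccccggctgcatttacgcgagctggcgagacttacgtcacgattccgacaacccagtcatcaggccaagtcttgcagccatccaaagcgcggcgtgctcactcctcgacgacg
Psme4: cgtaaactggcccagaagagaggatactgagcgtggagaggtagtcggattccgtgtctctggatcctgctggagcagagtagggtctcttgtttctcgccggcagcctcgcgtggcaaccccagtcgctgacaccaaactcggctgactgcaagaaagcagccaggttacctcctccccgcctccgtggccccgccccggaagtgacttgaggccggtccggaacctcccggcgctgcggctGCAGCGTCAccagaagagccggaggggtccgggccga

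RefSeq start windows of 300 bases were matched for 31 of the 37 genes; Psmb1, Psmb2, Psmb7, Psmc3, Psmd3 and Psmd7 had none. A gene counted if any of its windows held the letters, while the shares are of single windows. The counts and shares are therefore unlike measures, and a gene with several windows has more room for a match. Searched on both strands, TGACNNNGC was in 5 of the 31 genes (Psmb5, Psmb6, Psmc6, Psmd12 and Psme4) against 12.4% of 32851 windows of that length. The interferon core was in 3 (Psmb3, Psmd4 and Psme1) against 3.44%. CCGGAAG was in 13 against 8.86%, among them Psmd11, Psmd2, Psmd4, Psmc1 and Pomp. None of these motifs contains another. They were chosen with the expression results known, a match is a description and not a binding site, and no match says only that these letters are not in the window.

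The next comparison asked which genes changed by a different amount under LPS than under ISO at day 1, each against its own baseline. The 2 arms share no library. The LPS change was larger in 15 of 37 genes, against 18.2% of all tested genes, and smaller in 3, against 19.5%, while 19 did not pass the test (37.6% of all genes differed). The activator pair stood apart from the rest, with differences between the log2 changes of 1.84 (SE 0.10, adjusted p = 1.13e-12) for Psme1 and 2.10 (SE 0.11, adjusted p = 7.34e-13) for Psme2. Pomp differed by 0.85 (SE 0.09, adjusted p = 6.28e-08) and Psmf1 by 0.82 (SE 0.12, adjusted p = 1.37e-05). In the core, Psma7 (0.63), Psmb1 (0.44), Psma4 (0.40), Psma2 (0.38), Psmb2 (0.35), Psmb4 (0.30) and Psmb3 (0.24) rose more under LPS, which makes 7 of 14 core genes. Each difference includes any gap between the untreated arms. Over the alternatives, LPS baseline against ISO baseline stood at -0.295 to -0.206 for Psmb2 and -0.247 to -0.168 for Psmb3. For Psmb4 it stood at 0.091 to 0.14. The part of these gaps in the differences was not tested. In the 19S particle Psmc1 (0.33), Psmd8 (0.22) and Psmd13 (0.19) did.

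Psmd11 rose less under LPS than under ISO, by -0.50 (SE 0.11, adjusted p = 0.000758), which was -0.90 (adjusted p = 4.74e-05) on the log2(TPM + 0.1) scale. So did Psmd14 (-0.27, adjusted p = 0.0154) and Psme3 (-0.25, adjusted p = 0.0307). Over the alternatives, LPS baseline against ISO baseline stood at 0.102 to 0.161 for Psmd11 and at 0.104 to 0.229 for Psme3. For Psmd14 it stood at -0.1 to -0.037. The part of these gaps in the 3 differences was not tested. The deposited effective length of Psmd11 had means of 2093 bases at ISO baseline and 1835 at ISO day 1. In the LPS arm these means were 2136 and 2348 bases. TPM are scaled by this length, and its part in the larger Psmd11 difference on that scale was not tested. Psme4 fell less, by 0.41 (SE 0.16, adjusted p = 0.0412). With LPS day 1 replicates 1 and 2 alone, the LPS minus ISO difference was called above 0 in 14 genes and below 0 in 2. The shares of all genes were 18.8% and 20.5%. With replicates 3 and 4 alone these were 12 and 3, against 18.3% and 20.1%. With the first pair alone the Psme3 and Psme4 differences were -0.15 (adjusted p = 0.171) and 0.15 (adjusted p = 0.375). With the second pair alone that of Psme4 was 0.63 (adjusted p = 0.000546), that of Psmb3 0.14 (adjusted p = 0.245) and that of Psmd8 0.13 (adjusted p = 0.212).

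Several of these calls depended on single libraries. The Psme3 call was lost without ISO day 1 replicate 1 or 2, LPS baseline replicate 2 or LPS day 1 replicate 3 or 4 (-0.24 to -0.21, adjusted p = 0.0609 to 0.0895). The Psme4 call was lost without ISO baseline replicate 1 or 3, ISO day 1 replicate 2 or 3, LPS baseline replicate 1, 3 or 4, or LPS day 1 replicate 3 or 4 (0.32 to 0.42, adjusted p = 0.0511 to 0.0965). The Psmb3 call was lost without any of 10 libraries (0.19 to 0.25, adjusted p = 0.0661 to 0.145), namely ISO baseline 1 and 3, ISO day 1 replicates 1 and 2, all 4 of LPS baseline and LPS day 1 replicates 1 and 2. The Psmd8 call was lost without any of 10 as well (0.16 to 0.22, adjusted p = 0.052 to 0.156), the same list with ISO baseline 2 in place of 3. The Psmd13 call was lost without any of 11 (0.14 to 0.20, adjusted p = 0.0523 to 0.12), namely ISO baseline 1 and 3, all 3 of ISO day 1, LPS baseline 3 and 4 and all 4 of LPS day 1. Psmd4 gained a call without ISO baseline replicate 4 or LPS baseline replicate 2 (0.24 and 0.25, adjusted p = 0.0388 and 0.0313). The Psmd14 call was lost with library totals as the scaling (-0.27, adjusted p = 0.0505), and the Psmb4 call on the log2(TPM + 0.1) scale (0.25, adjusted p = 0.106). These losses are not all. Over the 26 alternatives, those above included, the call was lost in 18 for Psmd13, in 15 for Psmd8 and in 13 for Psmb3. It was lost in 13 for Psme4, in 7 for Psme3 and in 3 for Psmd14.

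Across the 31 core and 19S subunit genes the day 1 changes of both agents ran together, with a Pearson r of 0.76 and a Spearman rho of 0.60. Within the 17 genes of the 19S particle r was 0.84 (rho 0.72) and within the 14 core genes 0.76 (rho 0.46). Over all 37 genes r was 0.26 (rho 0.25). These are descriptions across genes, which share the same libraries and are not independent replicates. The LPS change was the larger number in 23 of the 31 subunit genes. It was larger in 12 of 14 core genes and in 11 of 17 genes of the 19S particle. These counts have no share over all genes beside them and include any gap between the untreated arms. With pooled baselines the median log2 change of the 37 genes was 0.44 for ISO and 0.59 for LPS, closer together than with separate baselines. The all-gene medians were then -0.02 for each agent. The part of the baseline gap in these counts was not tested.

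**Figure D3:**
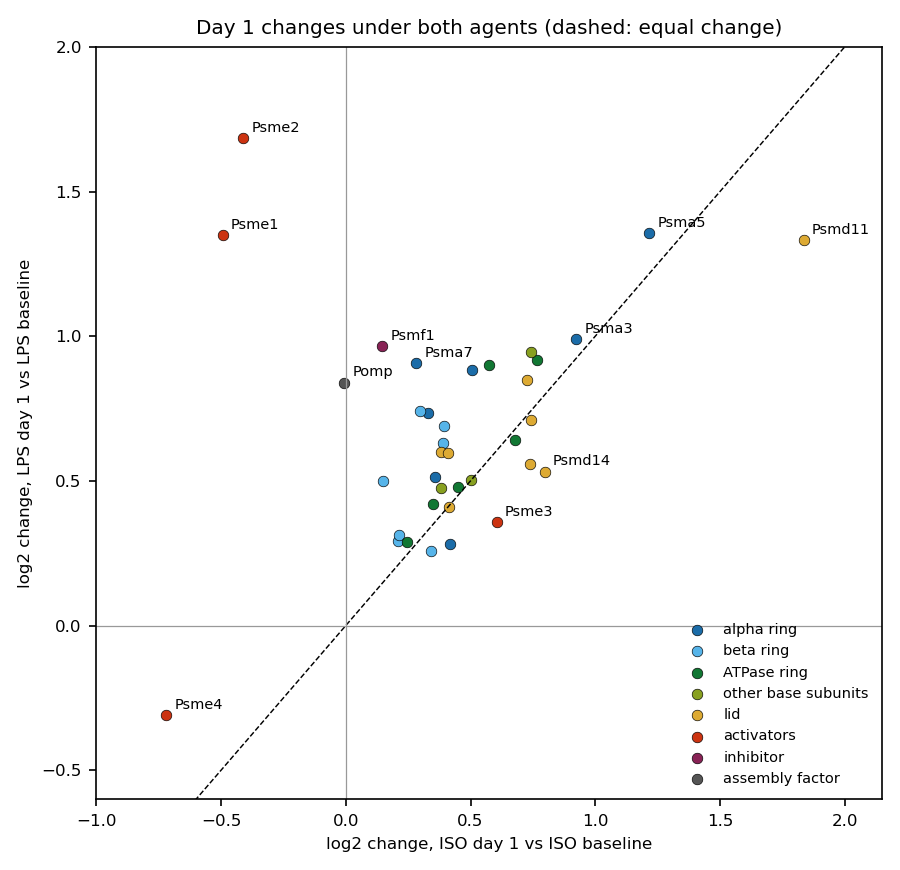
Log2 change at ISO day 1 (horizontal) against that at LPS day 1 (vertical) for the 37 genes, coloured by class, with a dashed line where both are equal. Subunit genes spread along the line, Psmd11 lies below it at 1.84 and 1.33, and Psme1 and Psme2 lie in the upper left, at -0.49 and 1.35 and at -0.41 and 1.68.

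By day 7 after ISO the genes stood near baseline. None of the 37 passed the test in edgeR, against 0.00636% of all genes. None did in DESeq2, against 0.00327% of all genes higher and 0.00327% lower. In edgeR 2 had an unadjusted p under 0.05, a count not read as a result without its share over all genes. Log2 changes ran from -0.23 (Psme4, SE 0.11, adjusted p = 0.901) to 0.11 (Psmd4, SE 0.06, adjusted p = 0.921), with a median of -0.03 (0.02 on the log2(TPM + 0.1) scale). Psmd11 stood at 57.6, 53.6, 54.8 and 58.8 CPM, back within the range of the baseline libraries, and Psma5 at 20.04, 20.6, 20.9 and 20.4 CPM. Psme1 stood at 81.0, 89.7, 77.0 and 81.7 CPM, with 3 libraries below the lowest baseline library and 1 within the range, and a log2 change of -0.17 (SE 0.07, adjusted p = 0.836). Psme2 stood at 20.99, 22.9, 18.8 and 19.96 CPM and Psme4 at 302, 243, 215 and 249.6 CPM, both overlapping baseline. ISO day 7 replicate 3 held macrophage markers at 183 CPM in sum, against 85.0 CPM in the lowest of that group, and its part in these values was not tested. In 0 of the 37 genes were the groups apart in either direction, against 2.04% of all genes higher and 1.65% lower.

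Day 7 after LPS differed from baseline in few members: 1 rose, against 5.96% of all genes, and 2 fell, against 3.13%, with 9.10% of all genes changed. Of the 37, 9 had an unadjusted p under 0.05, a count not read as a result without its share over all genes. The gene that rose was Psme2, at 23.2, 24.3, 26.4 and 22.2 CPM, all above the highest baseline library (0.26, SE 0.07, adjusted p = 0.0255). Psme1 stood at 110.0, 118, 118 and 105 CPM, with 1 library below the highest baseline value, and did not pass the test (0.19, SE 0.07, adjusted p = 0.0703). The Psme2 call was lost without LPS baseline replicate 2 (adjusted p = 0.0757) or 3 (0.0623), or LPS day 7 replicate 2 (0.0566) or 3 (0.116), with log2 changes of 0.22 to 0.26. Scaled by library totals Psme2 stood at 0.42 (adjusted p = 0.00374) and Psme1 at 0.35 (adjusted p = 0.00163), where the all-gene median was 0.16. At this time leukocyte markers summed to 54.8 to 75.2 CPM against 26.8 to 31.9 CPM at baseline, macrophage markers to 161 to 195 CPM against 92.8 to 115 CPM, and natural killer markers to 7.35 to 10.9 CPM against 0.237 to 0.306 CPM, with none at 0 reads over either group. Their part in the Psme2 value was not tested.

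Psmd2, a scaffold of the base, and Psmd3, a structural lid subunit, were the 2 that fell. Psmd2 stood at 132, 147, 149 and 149.985 CPM against 160.0, 165, 160.4 and 171 CPM at LPS baseline (-0.18, SE 0.05, adjusted p = 0.0348), and Psmd3 at 115, 112, 118 and 117 CPM against 127, 129, 126 and 133 CPM (-0.16, SE 0.05, adjusted p = 0.0384). On the TMM scale both groups lay below baseline without overlap, as they did for 10 of the 37 genes against 10% of all genes. For 1 member, Psme2, day 7 lay wholly above baseline, against 10.7%. Scaled by library totals alone, Psmd2 stood at -0.02 and Psmd3 at 0.00, where the all-gene median was 0.16, so both lay below that median on either scale and without a call on the second. The Psmd2 call was lost without LPS baseline replicate 1, 2 or 4 or LPS day 7 replicate 1, 2 or 3 (-0.20 to -0.14, adjusted p = 0.0572 to 0.118). The Psmd3 call was lost without those libraries or LPS day 7 replicate 4 (-0.17 to -0.14, adjusted p = 0.0626 to 0.109). Psme4 stood at 202, 212, 237 and 227 CPM, all below the baseline libraries, at -0.32 (SE 0.11, adjusted p = 0.0646). The median of the 37 genes was -0.08 against 0.00 for all genes, with 4 of 37 above 0. With library totals the members' median was 0.08 (34 of 37 above 0) against 0.16 for all genes, and on the log2(TPM + 0.1) scale 0.13 (35 of 37 above 0) against 0.20, so the direction of the group from baseline turned with the scaling while it lay below the all-gene median on each of these scales.

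Between day 1 and day 7 the subunit genes came down again, in comparisons that share the day 1 and day 7 libraries with those above. In the ISO arm 32 of 37 genes were lower at day 7 than at day 1, against 31.9% of all genes, and 3 (Psme1, Psme2 and Psme4) were higher, against 33.2% (65.1% of all genes changed). In the LPS arm 36 were lower, against 32.5%, and 0 higher, against 33.9% (66.4% changed). With LPS day 1 replicates 3 and 4 alone 37 were lower, against 28.6% of all genes. With all libraries Psme4 did not change by the test (-0.01, adjusted p = 0.961). With LPS day 1 replicates 1 and 2 alone Psme4 was higher at day 7 (0.25, adjusted p = 0.0302), and with replicates 3 and 4 alone it was lower (-0.23, adjusted p = 0.0481). The summed level of the 14 core genes was 1005 ± 19.8, 1324 ± 57.6 and 1001 ± 34.9 TPM at ISO baseline, day 1 and day 7 (SD, n = 4, 3 and 4) and 981 ± 19.5, 1431 ± 125 and 1070 ± 49.7 TPM in the LPS arm (SD, n = 4 each). That of the 17 genes of the 19S particle was 873 ± 13.96, 1372 ± 68.1 and 902 ± 40.5 TPM in the ISO arm and 891 ± 17.7, 1352 ± 128 and 963 ± 23.8 TPM in the LPS arm.

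**Figure D4:**
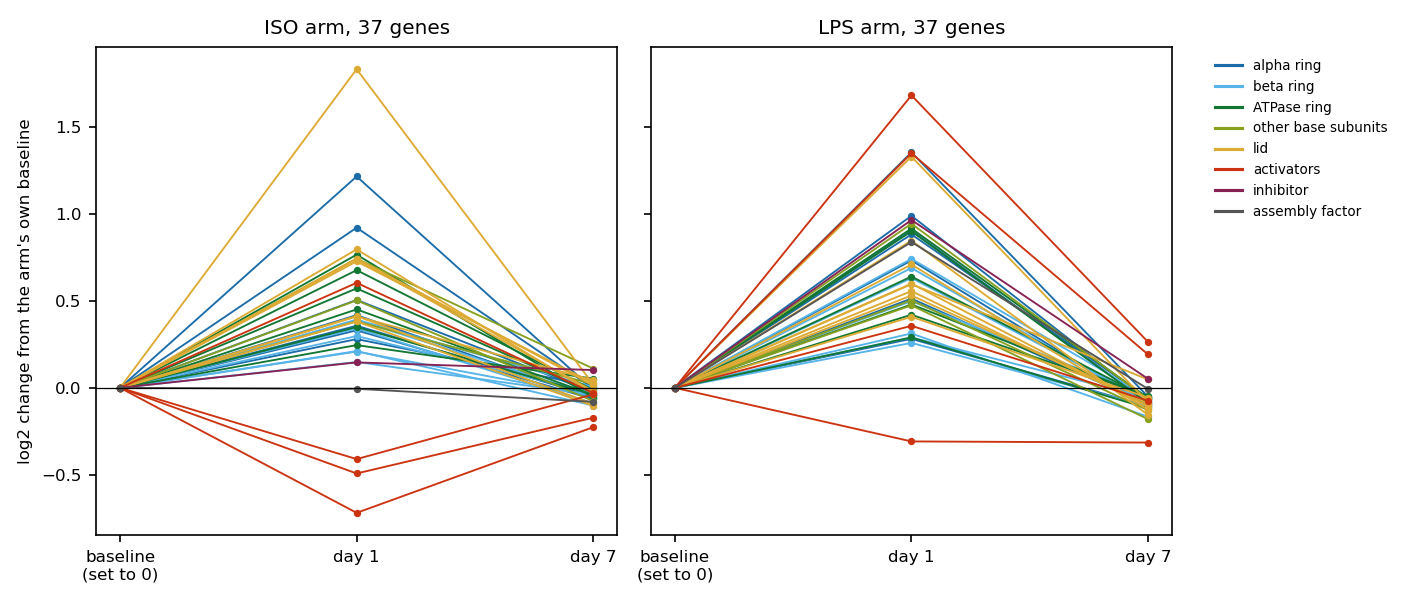
Log2 change from the arm's own baseline (set to 0) at day 1 and day 7 for each of the 37 genes, with 1 line per gene coloured by class. Most lines peak or dip at day 1 (Psme4 in the LPS arm stays near -0.31), and all lie between -0.23 and 0.11 at ISO day 7 and between -0.32 and 0.26 at LPS day 7.

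The difference between the agents at day 7 passed the test in 0 of 37 genes, against 0.458% of all genes. An unadjusted p under 0.05 was seen in 5, a count not read as a result without its share over all genes. DESeq2 called 1, Psme1, at 0.36 (adjusted p = 0.0263), against 0.415% of all genes higher and 0.23% lower. In edgeR Psme1 stood at 0.36 without a call. The untreated hearts of the arms differed in 1 gene, Psmb2, lower at LPS baseline (-0.26, SE 0.06, adjusted p = 0.0244). Of all genes, 0.737% were lower, 0.477% higher and 1.21% different. The Psmb2 call was lost without ISO baseline replicate 1, 2 or 4 or LPS baseline replicate 3 or 4 (-0.26 to -0.23, adjusted p = 0.0658 to 0.114). Between the baselines 11 members had an unadjusted p under 0.05, again not read as a result without the share over all genes.

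Other genes of the pathway were taken from lists of 152 genes in all, members and cell markers included, of which 146 could be tested. The counts for each list stand beside 32.9% of all tested genes higher and 32.8% lower at ISO day 1, and 33.2% higher and 33.0% lower at LPS day 1. The transcription factor gene Nfe2l1 stayed at 505, 529, 513 and 531 CPM at ISO baseline and 511, 479 and 531 CPM at ISO day 1 (-0.04, adjusted p = 0.61). In the LPS arm it stood at 523, 568, 566 and 554 CPM and at 558, 601, 552 and 603 CPM (0.07, adjusted p = 0.29). Its groups overlapped in both arms at day 1, and at LPS day 7 it was lower (-0.19, adjusted p = 0.031). The other 7 genes of the NRF1 pathway list rose at day 1 in both arms, among them its small MAF partner genes Maff (3.42 for ISO, 2.33 for LPS), Mafk (1.71 and 1.68) and Mafg (1.34 and 0.46), and Vcp, which encodes the p97 unfoldase (0.46 and 0.27). Of 7 p97 cofactors 6 rose and Faf1 fell (-0.16 and -0.34) in each arm, with Ubxn4 at 1.26 and 0.91 and Nploc4 at 0.85 and 0.94.

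Among 11 other 19S and proteasome-associated genes, 8 rose and 1 fell under ISO, and 5 rose and 2 fell under LPS, against the same shares of all genes (32.9% and 32.8% under ISO, 33.2% and 33.0% under LPS). Adrm1, a ubiquitin receptor of the base, rose by 0.89 and 0.92 and Txnl1, a thioredoxin bound to the 19S particle, by 1.28 and 0.72. Zfand2a, induced by arsenite and heat, rose by 0.57 and 1.20. Of 7 ubiquitin shuttle receptor genes, 4 rose and 2 fell under ISO and 5 rose and 1 fell under LPS, with Sqstm1 at 1.40 and 0.79, Rad23b at 0.97 and 0.59 and Ubqln1 at 0.71 and 0.34. Of 7 other assembly chaperones, 2 rose and 3 fell under ISO and 2 rose and 2 fell under LPS. Psmg1, which helps to build the alpha ring, fell by 1.03 and 0.90 on the log2 scale, while Psmg4, another chaperone of alpha-ring assembly, stood at 0.00 (adjusted p = 0.99) under ISO and rose by 1.01 under LPS.

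Of 6 ubiquitin and E1 genes, 4 rose and 0 fell under ISO and 5 rose and 1 fell under LPS. Ubb, a polyubiquitin gene, stood at 0.01 (adjusted p = 0.93) under ISO and at 1.54 under LPS, a difference of 1.53 between the agents (adjusted p = 5e-12). Rps27a rose by 1.03 and 0.91 and Uba6 changed by 0.26 and -0.79. The 10 cardiac and muscle E3 ligase genes rose in 5 and fell in 4 under ISO, and rose in 6 and fell in 2 under LPS, against 32.9% of all genes higher and 32.8% lower under ISO and 33.2% and 33.0% under LPS. The muscle atrophy ligases Fbxo32 and Trim63 changed by -0.80 and -0.41 under ISO and by 1.28 and 0.95 under LPS, and the differences between the agents were 2.08 (adjusted p = 1.4e-09) and 1.36 (adjusted p = 9.2e-08). Fbxo30 rose by 1.02 under ISO and by 0.20 under LPS, and Trim55, a muscle RING-finger gene, fell in both (-0.56 and -0.99). The 3 immunoproteasome catalytic genes Psmb8, Psmb9 and Psmb10 changed by -0.70, -2.48 and -0.26 under ISO and by 3.40, 2.73 and 2.94 under LPS, in the directions of Psme1 and Psme2, and were higher at LPS day 7 as well (0.85, 0.64 and 0.55). Of the tissue-restricted subunit genes, Psma8 changed by 0.16 and 0.00 without a call, and Psmb11 had 0 reads in all 23 libraries.

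Some values depend on how reads were shared between genes. For 9 members the annotation holds a copy of at least 95% identity over 200 bases. Gm13835, identical to Psma3 over 665 bases, held 102% as many reads as Psma3 itself, so the Psma3 count is uncertain; with the copies added its log2 changes were 0.92 and 0.93, against 0.92 and 0.99 without. Copies held 7.00% of the reads of Psma5 and 5.59% of those of Psmd11, and the copies of each of the other 5 members held at most 1.78%. With all copies added Psmd11 stood at 1.75 and 1.23, and no count of members called moved. Sirt3, on the strand opposite Psmd13, held 50.5% as many reads, Gm15542 on the same strand as Psmd13 15.6%, AW209491 on the same strand as Psma2 16.8%, Slc39a13 opposite Psmc3 14.1%, Emc9 opposite Psme1 13.8% and Nek6 opposite Psmb7 7.59%. The strand setting of the counting is not given in the sources used here, so such neighbours may not be fully separated.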

How the data were processed

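Per the file headers, each of the 23 deposited tables gives, for 55487 Ensembl identifiers, the authors' estimated count (not normalized; 9.50% of values were not whole), the TPM and the effective length. Tools named in the submitters' processing notes are DRAGEN, bcl2fastq, edgeR and limma, with mm10 as the build. Which annotation was used, and whether counting used strand, is not given in the sources used here. Symbols came from GENCODE M21 (55141 identifiers matched; the others held at most 0.0146% of the reads of any library). Estimated counts as deposited were rounded and tested with edgeR 4.0.16 (R 4.3.3): quasi-likelihood tests on 1 model of 6 group means, TMM scaling, filterByExpr with a minimum count of 10, Benjamini-Hochberg adjustment over all 15732 genes and calls at adjusted p under 0.05. Every adjusted p in the text is from that test unless another tool or scale is named. The common biological coefficient of variation was 11.0%. Printed CPM are TMM-scaled, levels between genes use the authors' TPM, and ± is the SD between libraries.

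The members, marker and pathway lists, motifs and tests were chosen with earlier results of these data known. Values per library are given for Psme1 to Psme4, Psmf1, Pomp and, in each of the 5 core and 19S classes, the members with the highest and lowest change at either day 1, besides members whose call goes against most; of the other lists up to 3 genes with the smallest adjusted p, and Nfe2l1, are named. Names beyond these were chosen after their values were seen. Alternatives were RLE and library-total scaling, no filter, a minimum count of 50, DESeq2 1.42.0, limma 3.58.1 on log2(TPM + 0.1), a replicate block, the compared groups alone, pooled baselines and leaving out each library; adding reads of near-identical copies and splitting the LPS day 1 libraries were chosen after seeing the data. Replicate numbers were not taken as pairs. On counts simulated for LPS day 1 over 15732 genes, the test recovered 18 of 50 genes changed 1.3-fold, 27 at 1.5-fold, 37 at 2-fold and 49 at 4-fold, with 1 false call. The changed genes were drawn over all expression levels and all other genes were left unchanged. In the data 66.2% of tested genes changed at LPS day 1, so this recovery does not describe the members there. Start regions are RefSeq's (GRCm38.p6).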

Additional observations from a re-analysis of the deposited data

Results flagged for a closer look

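The day 1 change differed between the agents in 12 genes with values given per library, by the interaction term of the edgeR test. The LPS change minus the ISO change was 2.095 for Psme2, 1.844 for Psme1, 0.845 for Pomp, 0.82 for Psmf1, 0.626 for Psma7, 0.445 for Psmb1, 0.411 for Psme4, 0.35 for Psmb2, 0.297 for Psmb4, 0.218 for Psmd8, -0.248 for Psme3 and -0.504 for Psmd11, on the log2 scale.

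A single library stood off from the others, relative to the range of its group, in 7 of the 100 groups of 4 libraries examined over 20 genes, where chance gives about 1 in 20. Psmd2 stood at 166.5 CPM in ISO day 7 replicate 3 against 188.3 to 191.2 CPM in the others, and Psmb2 at 55.74 CPM in that library against 64.54 to 65.2 CPM. Macrophage markers in that library summed to 182.7 CPM, the highest of its group. Its TMM factor was 1.0856, against 0.9321 to 1.0013 in the others of its group. Without that factor the members together were not low in it. They held 0.2509% of its reads, within the group's range of 0.2453% to 0.2535%. Its summed level was 954.1 TPM for the 19S particle, the highest of the group, and 1025 TPM for the core, within the range. The part of the markers and of the scaling in these values was not tested. Psmd2 stood at 132.2 CPM in LPS day 7 replicate 1 against 147.5 CPM or more in the others, and Psme3 in that library at 54 CPM against at most 50.81 CPM. Psmd8 stood at 63.94 CPM in LPS day 7 replicate 4 against 62.45 to 62.62 CPM, a small gap beside an even smaller spread. Psmb1 stood at 106.2 CPM in LPS day 1 replicate 4 against 110.9 CPM or more. Psmd11 stood at 60.19 CPM in ISO baseline replicate 1 against at most 54.45 CPM.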

How the results depend on the processing

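At day 1 against baseline the counts of members called stayed within 1.5 times of those reported, except for the 1 gene lower at LPS day 1 (Psme4), which became 0 with LPS day 1 replicates 3 and 4 alone or without replicate 1 or 2. On the TPM scale 34 genes were higher at ISO day 1, with Pomp and Psmf1 added. Few calls were made at day 7 and between the baselines, and these moved. At LPS day 7 the 1 higher gene became 3 with library totals, 3 on the log2(TPM + 0.1) scale, 2 with the groups alone and 2 with pooled baselines, and the 2 lower genes became 0 with library totals, 1 with no filter, 4 with DESeq2, 0 on the TPM scale, 4 with the groups alone and 7 with pooled baselines. From LPS day 1 to day 7, 1 gene was higher with LPS day 1 replicates 1 and 2 alone, against 0. Of the 3 genes that rose less under LPS at day 1, 1 was left with no filter. At day 7 the agents differed in 1 gene with library totals, 1 with DESeq2 and 1 on the TPM scale, against 0. Between baselines 1 gene was higher with DESeq2, 1 on the TPM scale and 1 with the groups alone, against 0, and the 1 lower gene became 0 with no filter, 4 with DESeq2, 0 on the TPM scale and 4 with the groups alone. Leaving out each library in turn gave 31 to 32 genes higher and 3 lower at ISO day 1, 36 higher and 0 to 1 lower at LPS day 1, 0 at ISO day 7, 0 to 1 higher and 0 to 2 lower at LPS day 7, 11 to 16 higher and 2 to 3 lower for the difference at day 1, and 0 to 1 lower between baselines. Among values called in either setting, signs turned for Pomp at ISO day 1 (0.217 on the TPM scale), for Psmd3 at LPS day 7 (0.003 with library totals, 0.052 on the TPM scale) and for Psme4 from LPS day 1 to day 7 (0.251 with LPS day 1 replicates 1 and 2 alone). Uncalled members changed sign as well: 4 of 37 were above 0 at LPS day 7, against 34 with library totals and 35 on the TPM scale, 10 at ISO day 7, against 19 and 20, and 5 for the difference at day 7, against 32 and 32. Scaling by library totals leaves out the TMM factors, which were 1.0878 to 1.13 at LPS day 7 against 0.9713 to 1.0151 at LPS baseline. Why the factors differed between these groups was not tested.

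With the replicate number as a block, 1 gene was lower at LPS day 7 and 2 were lower between baselines, and 31 were higher at ISO day 1. Same-numbered libraries of different groups had deviations correlated from -0.152 to 0.107. With 3 or 4 libraries a group, these values can neither show nor exclude a batch shared by number. Library totals moved the median of all genes to 0.16 at LPS day 7, to 0.20 from LPS day 1 to day 7 and to 0.13 for the difference at day 7, and called 2421 genes higher and 90 lower at LPS day 7 in place of 938 and 493. On the TPM scale that median was 0.20 and the counts 2035 and 44. Members had at least 315 reads in every library; how depth limited small changes was not tested.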
